A study of Mus musculus with 42 samples.

Results

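The 41 genes described here encode proteins that copy DNA or commit a cell to copying it, and they were taken by symbol from a deposited table of 45317 gene entries. The rule names the genes and uses no measured value, although the list was drawn up with earlier results of these data known. All 41 passed the filter on low counts that left 12529 genes for testing. They were sorted by role into origin licensing (10 genes), helicase activation (5), the sliding clamp and its loader (6), polymerases and primase (6), nucleotide supply (4), strand maturation and single-strand binding (4), regulators of the G1/S transition (3), and chromatin assembly and maintenance (3).

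A eukaryotic cell prepares its replication origins in G1, when the origin recognition complex, Cdc6 and Cdt1 load the ring-shaped Mcm2 to Mcm7 helicase onto DNA. In S phase, Mcm10, Cdc45 and the GINS complex activate the helicase, primase and polymerase alpha start each strand, and the clamp Pcna, opened by replication factor C, holds the main polymerases on the template. Many of these genes are transcribed under E2F factors near the G1/S boundary, so their RNA is abundant in cycling cells and scarce in resting ones. Adipocyte precursors are known to leave the cell cycle as they differentiate.

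The cells were multipotent stromal cells (MSCs) of C57BL/6 mouse bone marrow, bought commercially and used undifferentiated at passage 9 to 10. All groups were plated at 15000 cells/cm2, left for 24 h and then treated for 48 h. Controls received 0.1% DMSO, the solvent dimethyl sulfoxide. The other groups were rosiglitazone (100 nM), an agonist of the nuclear receptor PPARγ, AGN194204 (100 nM), a synthetic compound that activates RXR (retinoid X receptors), and tributyltin (TBT, 50 nM), an organotin that activates both kinds of receptor. RNA was sequenced in 6 libraries per treatment, and the histone marks H3K4me3 and H3K27me3 were mapped in 4 DMSO and 4 TBT libraries each. Up to 12 libraries shared a run, and the runs are unlabelled, so run and treatment cannot be told apart. The labels do not say whether a group's libraries are separate cultures. The p-values therefore measure only how these libraries spread, which may be technical.

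The RNA libraries held 3801758 to 5347365 counts in genes, and a single member had 31 to 1719 counts in a library. All 13 stromal markers passed the filter, among them Col1a1, a fibrillar collagen chain, at 1814 CPM and Pdgfrb, a growth factor receptor, at 290.4 CPM in the DMSO group. The stromal list itself moved, with 2 of 13 lower and 4 higher under TBT, 2 lower and 6 higher under AGN194204, and 1 lower under rosiglitazone. Log2 changes under TBT and AGN194204 were -0.58 and -0.81 for Thy1, -0.41 and -0.41 for Cd44, 0.54 and 0.57 for Ly6a and 0.35 and 0.38 for Pdgfrb. The list summed to 5721 to 6169 CPM in DMSO, 5675 to 6100 in rosiglitazone, 5945 to 6755 in AGN194204 and 5630 to 6769 in TBT libraries. CPM is each gene's share of its library's counts after scaling by trimmed mean of M values (TMM), and CPM are compared here only within a gene. Of 14 macrophage and blood cell markers 3 passed, and Adgre1 and Tyrobp had 0 counts in every library. The blood list summed to 54.0 to 61.7 CPM in DMSO, 57.1 to 68.8 in TBT, 58.0 to 67.9 in AGN194204 and 45.8 to 54.5 in rosiglitazone libraries. Of 9 mature adipocyte markers 1 passed, the lipase gene Lipe, and the list's sum was nearly all Lipe. Lipe averaged 20.7 CPM in DMSO, 20.5 in rosiglitazone, 36.2 in AGN194204 and 37.5 in TBT. The sum ran from 17.8 to 26.0 CPM in DMSO, 16.0 to 26.3 in rosiglitazone, 24.7 to 44.5 in AGN194204 and 33.5 to 47.9 in TBT, with Adipoq at 1 count over all libraries and Lep at 0. Endothelial markers, of which 3 of 10 passed, summed to 16.6 to 24.2 CPM in DMSO, 13.3 to 18.4 in rosiglitazone, 11.7 to 17.1 in AGN194204 and 14.1 to 17.8 in TBT. The part of these shifts in the results was not tested.

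Promoter sequences of 34 members were found in a RefSeq table of the build GRCm38.p6, with 250 bases before and 50 after each start. Gins2, Ccne2, Gins1, Prim2, Rfc2, Mcm4 and Pole had no entry. Those printed are Mcm3 and Uhrf1, which have the smallest adjusted p under TBT among the members described by library that hold an E2F motif, and Rpa1, which has the largest. Each runs 5′ to 3′ over the 250 bases before the start, on the plus strand for Uhrf1 and the minus strand for the others, and capitals mark E2F motifs (TTTCCCGC, TTTGGCGC, TTTCGCGC or TTTGCCGC, both strands) and CCAAT boxes (CCAAT, both strands).
Mcm3, chr1:20820313-20820562: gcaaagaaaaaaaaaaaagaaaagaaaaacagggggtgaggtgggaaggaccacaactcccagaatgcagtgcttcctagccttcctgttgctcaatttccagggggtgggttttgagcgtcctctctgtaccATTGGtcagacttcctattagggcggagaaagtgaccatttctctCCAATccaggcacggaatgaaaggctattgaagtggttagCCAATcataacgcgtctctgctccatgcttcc
Uhrf1, chr17:56304063-56304312: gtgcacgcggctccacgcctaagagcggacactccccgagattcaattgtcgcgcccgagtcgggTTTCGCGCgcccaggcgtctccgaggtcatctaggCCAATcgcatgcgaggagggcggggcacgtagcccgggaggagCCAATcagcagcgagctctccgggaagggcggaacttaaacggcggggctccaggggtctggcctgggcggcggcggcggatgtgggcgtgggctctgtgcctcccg
Rpa1, chr11:75348384-75348633: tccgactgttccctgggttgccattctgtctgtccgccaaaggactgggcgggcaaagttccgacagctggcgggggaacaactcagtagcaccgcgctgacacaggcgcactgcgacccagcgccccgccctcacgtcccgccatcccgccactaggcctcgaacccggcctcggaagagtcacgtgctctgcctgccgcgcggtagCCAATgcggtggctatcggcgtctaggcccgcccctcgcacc
The Mcm3 window had no E2F motif before the start and 2 just after it, at positions 20 and 39 counted from the first transcribed base as 1. They lie in this 30-base run on the minus strand, with the motifs in capitals.
Mcm3, chr1:20820266-20820295: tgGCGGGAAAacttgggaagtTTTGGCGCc
Uhrf1 held 1 E2F motif, at -185, in this one of its listed windows. Rpa1 held none.

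Counting a gene as holding a motif where any of its 300-base windows does, 13 of the 34 members (38.2%) held an E2F motif, against 2.61% of all 27025 genes in the table and 4.86% of the 9028 of them that were tested in RNA. A CCAAT box was present in 21 members (61.8%, against 41.1% of all genes and 43.2% of those tested). The motif TTTGAA is the cell cycle genes homology region, known from genes of late cell cycle phases. It was found in 4 members (11.8%, against 20.2% of all genes and 13.8% of those tested). The nuclear receptor half-site AGGTCA was found in 5 (14.7%, against 18.1% and 14.4%). The shares for TTTGAA and AGGTCA lie near those of the tested genes. A match describes letters in this window and not a bound site. The E2F group was Cdc6, Cdt1, Gins3, Lig1, Mcm3, Mcm5, Mcm6, Mcm7, Orc1, Pola1, Pold1, Rfc3 and Uhrf1.

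Most replication genes were lower under TBT, by modest amounts. Of 41 members 29 fell against DMSO and 0 rose in edgeR's quasi-likelihood test at an adjusted p of 0.05 over all genes, where 13.9% of all 12529 genes tested fell and 15% rose. The median log2 fold change was -0.22 over the members and -0.01 over all genes tested. The called falls ran from 8.80% to 36.0% with a median log2 change of -0.26, and 1 of them, in Orc1, reached 1.5-fold. All 6 TBT libraries lay below all 6 DMSO libraries for 14 members, and 4.98% of all genes were separated that way. For 0 members did they lie above, against 6.73% of all genes. In bulk RNA, fewer cells of a type and less RNA per cell cannot be told apart. This holds for every fall given here.

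AGN194204, given at 100 nM against 50 nM for TBT, lowered 27 of 41 members and raised 0 in the same edgeR test, with 11.3% of all genes lower and 12.8% higher. The median log2 change was -0.19, against -0.003 over all genes. The AGN194204 libraries lay wholly below the DMSO libraries for 12 members, against 4.68% of all genes, and wholly above for 0, against 6.9%. Rosiglitazone lowered 0 and raised 1, Rrm2, with 0.423% of all genes lower and 0.615% higher (1.04% in all). Under rosiglitazone 2 members had an unadjusted p under 0.05, against 1413 of 12529 over all genes. The rosiglitazone median was 0.02 (-0.03 with ERCC spike-in scaling), and its libraries lay wholly below DMSO for 0 members (0.678% of all genes). The 3 comparisons share the DMSO libraries. When 1 of the 12 libraries compared was left out in turn, the TBT calls of Ccne1, Tyms, Pcna and Gins3 were lost in 7, 7, 6 and 2 of 12 fits. Among the AGN194204 calls, Rpa2, Fen1, Ccne2 and Tyms were lost in 9, 8, 7 and 7, E2f1 and Rfc2 in 2 each and Rfc3 in 1.

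**Figure D1:**
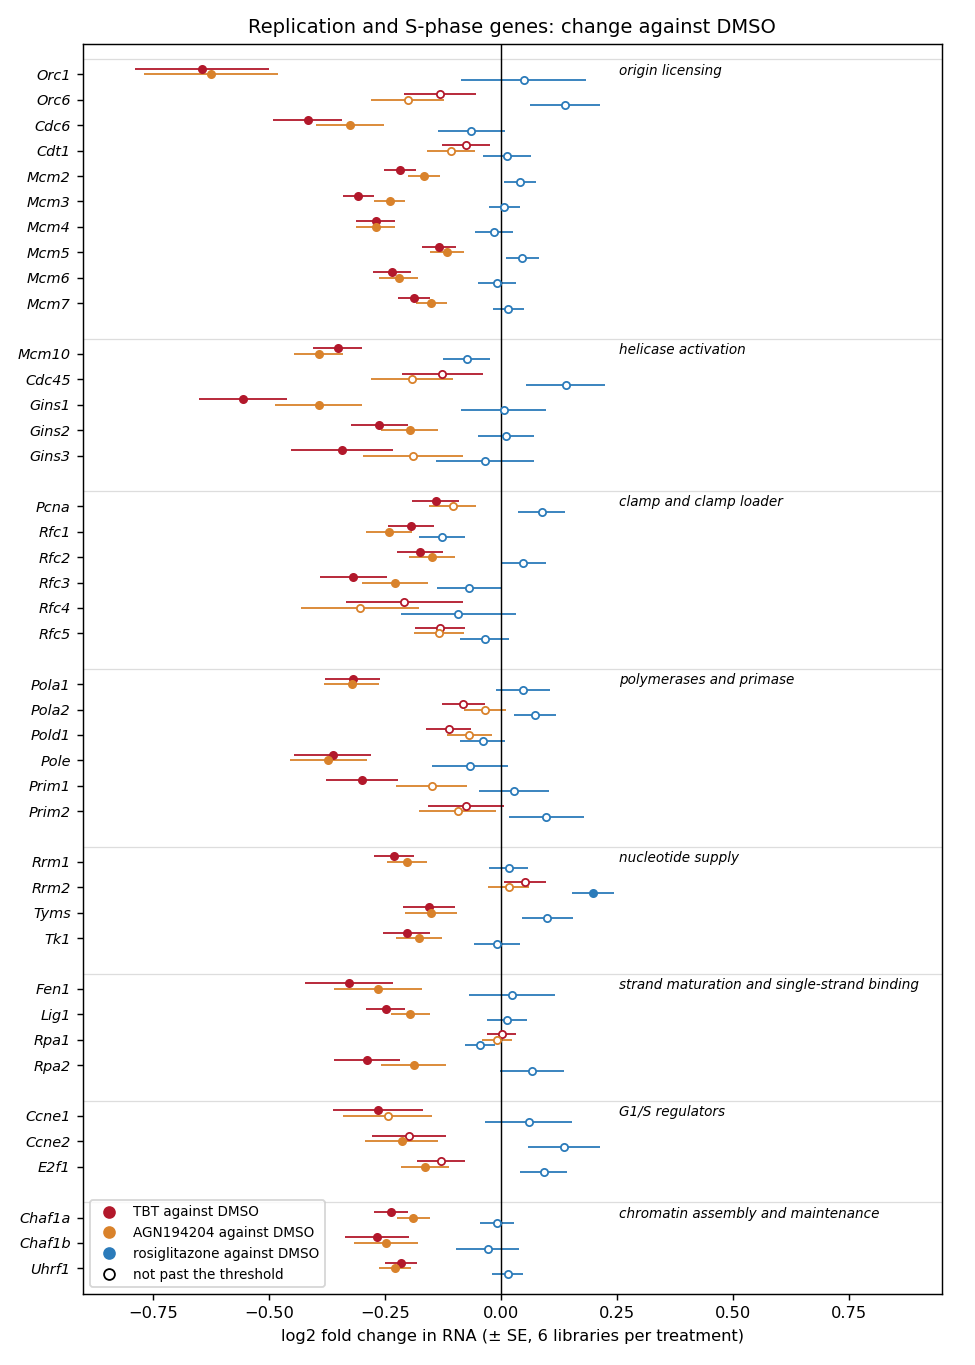
Log2 fold change in RNA with its standard error for each of the 41 genes, by role, for TBT, AGN194204 and rosiglitazone against DMSO (6 libraries per treatment). Filled points passed the edgeR test. TBT and AGN194204 points lie left of 0 for nearly all genes, while rosiglitazone points lie around 0.

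The share of all gene counts taken by the 41 members shows the same difference without any fit. Members took 51.6 ± 1.12 of every 10000 gene counts in DMSO, 52.3 ± 0.81 in rosiglitazone, 45.2 ± 1.57 in AGN194204 and 44.5 ± 1.22 in TBT libraries (SD, n = 6 each). The lowest DMSO library stood at 50.1 and the highest TBT library at 46.7. The AGN194204 libraries ran from 42.9 to 47.3, so neither group reached the DMSO range.

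The number of members called depended on the scaling. The labels' ERCC spike-in RNAs, added in known amounts, made up 0.376 to 0.502 counts per 100 gene counts in DMSO and 0.326 to 0.453 in TBT, and the groups did not differ past the threshold (exact two-sided permutation p = 0.294, adjusted over 6 tests 0.658). With ERCC in place of TMM scaling, 4 members fell under TBT (Orc1, Mcm3, Mcm10 and Gins1), 6 under AGN194204 (those 4 with Pola1 and Uhrf1), and 0 rose under rosiglitazone. The direction held more often than the call, with 36 of 41 members below 0 under TBT (median -0.13) and 39 under AGN194204 (median -0.18). The median of all genes moved to 0.08 for TBT against DMSO, and the calls over all genes became 293 lower and 1802 higher, from 1745 and 1878. Without TBT library 2, which had the fewest spike-in counts per gene count, 19 members fell under TBT with ERCC scaling. For that fit and for AGN194204 the ERCC calls over all genes are not given here. Those member counts therefore stand without a share of all genes.

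**Figure D2:**
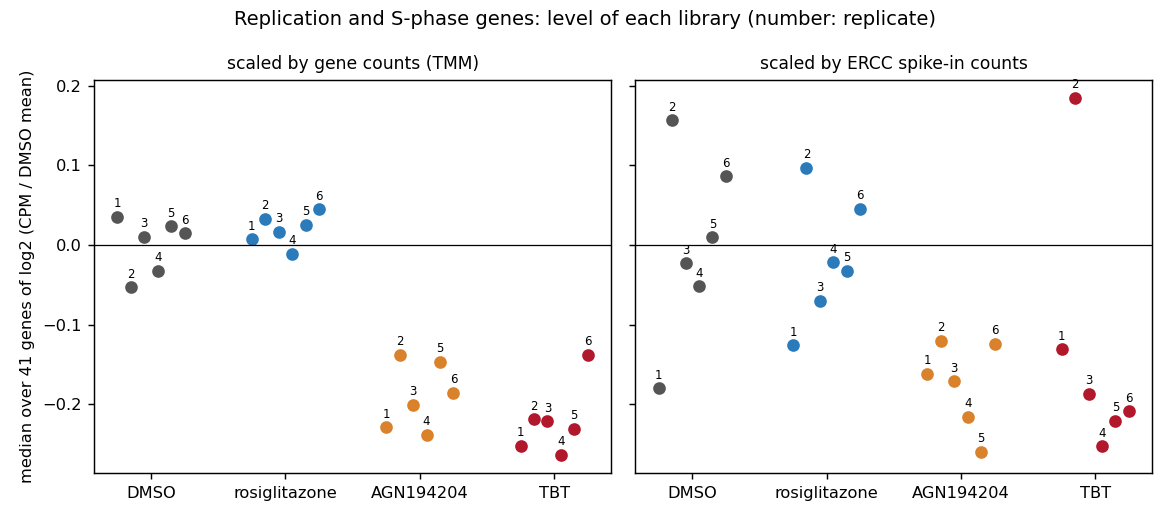
Median over the 41 genes of the log2 ratio to the DMSO mean in each library, with the replicate number beside each point, under TMM scaling (left) and ERCC scaling (right). Under TMM the 12 TBT and AGN194204 libraries run from -0.26 to -0.14 and all lie below the DMSO and rosiglitazone libraries. Under ERCC scaling the groups spread more widely, and TBT library 2 stands at 0.19.

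Of the origin licensing genes 8 of 10 fell under TBT and 8 of 10 under AGN194204. Mcm3, a helicase ring subunit with the smallest adjusted p among members under TBT, stood at 335 to 371 CPM in DMSO (median 351), 347 to 363 in rosiglitazone (354), 286 to 317 in AGN194204 (294) and 268 to 302 in TBT (286). All 12 libraries of the last pair of treatments were below all 12 of the first. Its log2 change was -0.31 ± 0.0341 (SE) under TBT (edgeR adjusted p = 3.94e-09), -0.24 ± 0.034 under AGN194204 (8.39e-07) and 0.01 ± 0.0336 under rosiglitazone (0.959).

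Mcm2, a ring subunit phosphorylated at the start of S phase, ranged over 285 to 310 CPM in DMSO (median 307), 293 to 319 in rosiglitazone (311), 252 to 278 in AGN194204 (269) and 247 to 269 in TBT (261). It fell by 0.22 ± 0.034 on the log2 scale under TBT (edgeR adjusted p = 3.76e-06) and by 0.17 ± 0.0339 under AGN194204 (0.000275). Mcm4, another ring subunit, gave 179 to 194 CPM in DMSO (186), 178 to 188 in rosiglitazone (183), 138 to 173 in TBT (152) and 143 to 164 in AGN194204 (154). Neither treated group overlapped DMSO for Mcm2 or Mcm4, and the Mcm4 change was -0.27 with both compounds.

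Mcm6 ran from 162 to 169 CPM in DMSO (median 166), 155 to 171 in rosiglitazone (166), 134 to 153 in AGN194204 (142) and 131 to 156 in TBT (138). Its changes were -0.23 ± 0.0412 under TBT and -0.22 ± 0.0412 under AGN194204, with no overlap with DMSO. Mcm5 gave 294 to 320 CPM in DMSO (313), 303 to 334 in rosiglitazone (324), 278 to 296 in AGN194204 (287) and 260 to 303 in TBT (290). The ranges of Mcm5 met, and its fall was the smallest of the ring, -0.13 ± 0.0366 (edgeR adjusted p = 0.0051) under TBT and -0.12 ± 0.0365 (0.017) under AGN194204. Mcm7, the remaining subunit, changed by -0.19 and -0.15 and was separated from DMSO in both. So 6 of the 6 ring genes were called in both comparisons.

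The factors that load the ring behaved unequally. Cdc6, which brings the ring to the origin, ran from 52.9 to 74.1 CPM in DMSO (median 61.0), 56.4 to 67.5 in rosiglitazone (57.5), 43.0 to 53.1 in AGN194204 (50.6) and 43.1 to 55.8 in TBT (44.4). Both treated ranges ran past the lowest DMSO library. Cdc6 fell by 0.42 ± 0.0744 on the log2 scale under TBT (edgeR adjusted p = 3.36e-05) and by 0.32 ± 0.0739 under AGN194204 (0.000933).

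Orc1, the largest subunit of the origin recognition complex and singled out after its values were seen, had the largest change of all members. It stood at 16.1 to 23.1 CPM in DMSO (median 19.4), 17.1 to 22.5 in rosiglitazone (20.7), 7.57 to 17.2 in AGN194204 (12.2) and 8.11 to 15.2 in TBT (12.6). The TBT range lay below DMSO, and the AGN194204 range overlapped it. The change was -0.64 ± 0.145 under TBT (edgeR adjusted p = 0.000689) and -0.62 ± 0.145 under AGN194204 (0.00114), on 31 to 109 counts per DMSO, TBT or AGN194204 library.

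Cdt1, Cdc6's partner in loading, was not called, with 130 to 149 CPM in DMSO (median 136), 128 to 145 in rosiglitazone (140), 121 to 145 in AGN194204 (123) and 115 to 144 in TBT (134). Its log2 values were -0.07 under TBT (adjusted p = 0.305) and -0.11 under AGN194204 (0.136). Orc6, another subunit of the recognition complex, gave 48.6 to 59.9 CPM in DMSO (58.4), 57.7 to 68.5 in rosiglitazone (61.8), 42.8 to 58.9 in AGN194204 (48.6) and 46.9 to 65.9 in TBT (48.8). Its groups overlapped, with changes of -0.13 (adjusted p = 0.214) and -0.20 (0.057).

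**Figure D3:**
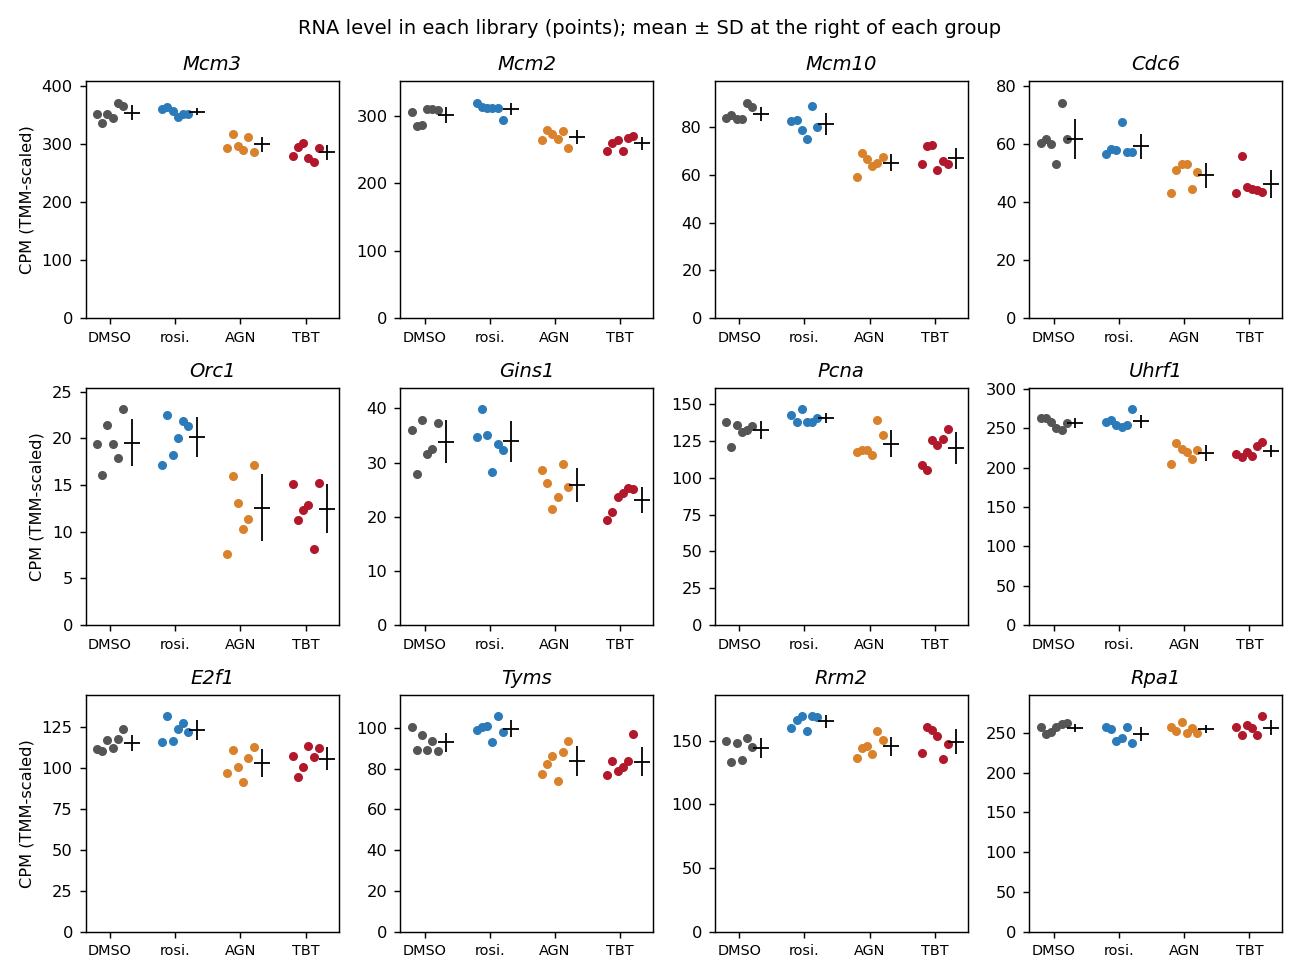
RNA level of 12 of the genes in each library, in TMM-scaled CPM from 0, with the mean and SD of each group of 6 at its right. Mcm3, Mcm2, Mcm10 and Uhrf1 are lower in every TBT and AGN194204 library than in any DMSO or rosiglitazone library, Rrm2 is higher in rosiglitazone than in DMSO, and Rpa1 overlaps in all groups.

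Among the 5 helicase activators 4 fell under TBT and 3 under AGN194204. Mcm10, which is needed for the helicase to start unwinding, ran from 83.1 to 90.1 CPM in DMSO (median 84.2), 75.0 to 88.5 in rosiglitazone (81.1), 58.9 to 69.0 in AGN194204 (65.7) and 62.0 to 72.5 in TBT (65.2). Neither treated range reached DMSO, and the changes were -0.35 ± 0.0522 under TBT (edgeR adjusted p = 1.44e-06) and -0.39 ± 0.0524 under AGN194204 (2.66e-07). Gins1, a subunit of the GINS complex, gave 27.8 to 37.9 CPM in DMSO (34.2), 28.2 to 39.8 in rosiglitazone (34.1), 21.4 to 29.7 in AGN194204 (25.8) and 19.5 to 25.3 in TBT (24.0). TBT libraries were all below DMSO and AGN194204 libraries overlapped it, with changes of -0.56 ± 0.0958 and -0.39 ± 0.0943.

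The other GINS genes were Gins2, at -0.26 under TBT and -0.20 under AGN194204, both called, and Gins3, at -0.34 (adjusted p = 0.0163) and -0.19 (0.214). Cdc45, the third part of the active helicase, was not called, at -0.13 and -0.19.

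Of the clamp and its loader 4 of 6 fell under TBT and 3 of 6 under AGN194204. Pcna, the clamp, ran from 121 to 138 CPM in DMSO (median 134), 138 to 146 in rosiglitazone (139), 116 to 139 in AGN194204 (119) and 105 to 133 in TBT (124). These ranges overlapped, and its changes were -0.14 ± 0.0513 under TBT (edgeR adjusted p = 0.0353) and -0.10 ± 0.0511 under AGN194204 (0.141). Rfc1, the large loader subunit, gave 128 to 151 CPM in DMSO (135), 117 to 135 in rosiglitazone (124), 111 to 124 in AGN194204 (113) and 109 to 136 in TBT (118). The AGN194204 range lay below DMSO. Rfc1 fell by 0.19 ± 0.0489 on the log2 scale under TBT and by 0.24 ± 0.0492 under AGN194204.

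Rfc3 changed by -0.32 and -0.23 and Rfc2 by -0.17 and -0.15, all called. Rfc4, at 14.7 to 21.0 CPM in DMSO (median 19.03), 15.4 to 19.9 in rosiglitazone (16.7), 11.5 to 19.5 in AGN194204 (14.2) and 12.5 to 18.6 in TBT (15.8), overlapped throughout and was not called (-0.21 ± 0.125 and -0.30 ± 0.127). Rfc5 was at -0.13 with both compounds, short of the threshold.

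Of the polymerase and primase genes 3 of 6 fell under TBT and 2 of 6 under AGN194204. Pola1, the catalytic subunit of the polymerase that extends primers, ran from 104 to 133 CPM in DMSO (median 122), 112 to 136 in rosiglitazone (124), 88.3 to 103 in AGN194204 (97.5) and 86.9 to 104.5 in TBT (98.7). The AGN194204 libraries lay below DMSO, and the TBT range met it. Pola1 fell by 0.32 ± 0.0595 with both compounds (edgeR adjusted p = 6.24e-05 under TBT). Pole, the leading-strand polymerase, changed by -0.36 ± 0.0829 and -0.37 ± 0.0831. Prim1, the catalytic primase subunit, gave 60.7 to 79.6 CPM in DMSO (70.3), 65.0 to 84.5 in rosiglitazone (69.7), 50.5 to 74.7 in AGN194204 (63.2) and 52.7 to 66.7 in TBT (55.8). It was called under TBT (-0.30, adjusted p = 0.00314) and not under AGN194204 (-0.15, 0.164), but the difference between the 2 compounds was not called (-0.15 ± 0.0796, 0.534).

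Pold1, the lagging-strand polymerase, ran from 134 to 155 CPM in DMSO (median 151), 137 to 157 in rosiglitazone (140), 130 to 152 in AGN194204 (141) and 126 to 154 in TBT (133). Its values were -0.11 ± 0.0486 and -0.07 ± 0.0484. Prim2, the large primase subunit, gave 42.5 to 48.7 CPM in DMSO (45.8), 41.2 to 55.1 in rosiglitazone (50.1), 39.1 to 49.3 in AGN194204 (41.4) and 36.9 to 53.8 in TBT (42.1). Both overlapped in all groups and were not called, and Pola2 was at -0.08 and -0.03.

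Nucleotide supply was split. Rrm1, the large subunit of ribonucleotide reductase, fell by 0.23 ± 0.0432 on the log2 scale under TBT and by 0.20 ± 0.0432 under AGN194204. Rrm2, its small subunit, stood at 134 to 153 CPM in DMSO (median 147), 158 to 169 in rosiglitazone (168), 137 to 158 in AGN194204 (145) and 136 to 160 in TBT (150). Every rosiglitazone library was above every DMSO library, as for 0.838% of all genes. Rrm2 rose by 0.20 ± 0.0445 under rosiglitazone (edgeR adjusted p = 0.0123) and was at 0.05 ± 0.0449 under TBT (0.416) and 0.02 ± 0.045 under AGN194204 (0.835). The rosiglitazone call was lost without DMSO library 2 and with ERCC scaling.

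Tyms, which makes thymidylate, ran from 88.4 to 100.3 CPM in DMSO (median 91.5), 93.1 to 106 in rosiglitazone (99.6), 74.0 to 93.7 in AGN194204 (84.5) and 76.9 to 96.8 in TBT (82.2). The groups overlapped, and the changes were -0.15 ± 0.0563 with both compounds (edgeR adjusted p = 0.0347 and 0.0463). Tk1, which salvages thymidine, gave 105 to 128 CPM in DMSO (114), 109 to 120 in rosiglitazone (114), 95.02 to 116 in AGN194204 (97.6) and 93.6 to 105 in TBT (99.6). TBT libraries lay below DMSO, and Tk1 fell by 0.20 ± 0.0502 under TBT and by 0.18 ± 0.0502 under AGN194204.

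Fen1 and Lig1, which trim and join the lagging strand, fell with both compounds (Fen1 -0.33 and -0.26, Lig1 -0.25 and -0.19), as did Rpa2, part of the single-strand binding protein (-0.29 and -0.19). Rpa1, its large subunit, ran from 249 to 262 CPM in DMSO (median 257), 238 to 258 in rosiglitazone (249), 249.7 to 263.5 in AGN194204 (254) and 247 to 271 in TBT (257). The ranges lay on each other, and the log2 values were 0.00 ± 0.0321 under TBT and -0.01 ± 0.0321 under AGN194204. Rpa1 was not called in any comparison.

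Of the 3 G1/S regulators 1 fell under TBT and 2 under AGN194204. E2f1, an activator E2F, ran from 110.4 to 123 CPM in DMSO (median 114), 116 to 131 in rosiglitazone (123), 91.1 to 112 in AGN194204 (103) and 94.3 to 113 in TBT (107). The groups overlapped, and the changes were -0.13 ± 0.0516 under TBT (edgeR adjusted p = 0.057) and -0.16 ± 0.0518 under AGN194204 (0.0177). Ccne1 and Ccne2 encode cyclin E. Ccne1 gave 27.6 to 36.7 CPM in DMSO (34.7), 30.5 to 40.5 in rosiglitazone (34.8), 21.8 to 33.4 in AGN194204 (30.4) and 24.7 to 30.4 in TBT (28.5), and was called under TBT (-0.26, 0.035) and not AGN194204 (-0.24, 0.0606). Ccne2 gave 45.2 to 57.1 CPM in DMSO (52.9), 52.3 to 61.1 in rosiglitazone (57.1), 39.3 to 50.2 in AGN194204 (44.9) and 37.1 to 53.8 in TBT (48.1), with -0.20 (0.0572) and -0.21 (0.0452).

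All 3 chromatin genes fell with both compounds. Chaf1a, the large subunit of the chromatin assembly factor that places histones behind the fork, ran from 259 to 275 CPM in DMSO (median 262), 246 to 271 in rosiglitazone (264), 208 to 249 in AGN194204 (233) and 213 to 234 in TBT (226). Uhrf1, which directs maintenance DNA methylation to new strands, gave 247 to 262 CPM in DMSO (257), 252 to 274 in rosiglitazone (256), 204 to 231 in AGN194204 (221) and 213 to 233 in TBT (218). Neither gene's treated ranges reached DMSO. Chaf1a changed by -0.24 ± 0.0365 and -0.19 ± 0.0364, and Uhrf1 by -0.21 ± 0.0341 and -0.23 ± 0.0342. Chaf1b, at -0.27 and -0.25, was called too.

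TBT (50 nM) and AGN194204 (100 nM) were compared directly at doses that differ. Of 41 members 0 were lower and 0 higher under TBT in edgeR's test, where 0.439% of all genes were lower and 0.407% higher. The smallest adjusted p in that test was 0.52, and DESeq2 called 0. An unadjusted p under 0.05 was found for 0 members, against 1269 of 12529 over all genes. For 0 members were the groups separated, with 0.495% of all genes separated downward and 0.423% upward, so 0 of 41 is near the share of all genes. Differences ran from -0.16 (Gins1) to 0.10 (Rfc4) with a median of -0.02. The 95% interval included 0 for 41 members and stayed within 0.2 of 0 on the log2 scale for 29, with bounds from -0.37 to 0.35 over all members, which does not show that the compounds act alike. With ERCC scaling the median turned to 0.06.

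Rosiglitazone served as a second reference. TBT lowered 34 of 41 members and raised 0 (13.5% of all genes lower, 15.2% higher), and all 6 TBT libraries lay below all 6 rosiglitazone libraries for 21 members, against 5.48% of all genes, and above for 0, against 6.78%. AGN194204 lowered 30 and raised 0 (11.2% lower, 13.5% higher), with 18 members separated downward, against 4.8%, and 0 upward, against 6.59%. With ERCC scaling the counts were 2 and 5, and the median of all genes moved by over 0.1, to 0.13, for TBT against rosiglitazone. The shares of all genes above are for TMM scaling and are no background for these ERCC counts. Rrm2 was lower than in rosiglitazone by 0.15 (TBT, adjusted p = 0.0112) and 0.18 (AGN194204, 0.00217).

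Members with and without an E2F motif are set side by side. Under TBT 11 of 13 with the motif fell, with a median of -0.25, and 13 of 21 without it fell, with a median of -0.20. Under AGN194204 these were 10 of 13 (-0.22) and 11 of 21 (-0.19). No test was made of this difference.

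Other genes of the pathway were counted from lists chosen with earlier results of these data known. Of 45 further replication and S-phase genes 27 fell and 1 rose under TBT, and 24 fell and 1 rose under AGN194204. Under rosiglitazone 0 were called, and 3 had an unadjusted p under 0.05 (1413 of 12529 over all genes). Beside these and the next lists stand the shares of all genes, 13.9% lower and 15% higher under TBT and 11.3% and 12.8% under AGN194204. Dnmt1, the maintenance DNA methyltransferase, changed by -0.22 and -0.23, and Top2a, a topoisomerase, by -0.26 and -0.22. Under AGN194204 Hells, a chromatin remodeller, changed by -0.36 and Cdca7, its partner, by -0.41. The gene that rose, named after its values were seen, was Pold4, a small subunit of polymerase delta (0.32 and 0.30). Of 22 checkpoint and repair genes 14 and 13 fell, among them Bard1 (-0.53 and -0.48) and Blm (-0.44 and -0.39), with Msh6, a mismatch repair protein, at -0.31 under AGN194204. Of 24 mitotic genes 18 and 15 fell. Those with the smallest adjusted p were Cenpf (-0.50 and -0.36) and Cenpe (-0.33 and -0.26), proteins of the kinetochore, with Anln at -0.28 under TBT and Mki67, the Ki-67 proliferation antigen, at -0.22 under AGN194204. Under rosiglitazone 0 genes of either list were called, with 5 checkpoint and 3 mitotic genes at an unadjusted p under 0.05 (1413 of 12529 over all genes). These mitotic genes were Cenpf (-0.20), Cenpe (-0.10) and Mki67 (-0.09), all lower as with the other compounds. The checkpoint genes included Bard1, lower (-0.21), and Chek1, higher (0.25). In each list 2 genes lay wholly below DMSO, against 0.678% of all genes. With ERCC scaling the medians of these lists stayed below 0, but the genes called lower were 4 further replication, 3 checkpoint and 1 mitotic under TBT and 6, 2 and 1 under AGN194204. Among the genes named, Bard1, Blm and Cenpf were still called lower with both compounds, and Pold4 was still called higher with both. Hells and Cdca7 kept their call under AGN194204. Dnmt1, Top2a, Cenpe, Msh6, Anln and Mki67 were not called with either compound. The shares of all genes given beside these lists are for TMM scaling and are no background for counts with ERCC scaling. The same holds for the lists that follow.

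Of 23 tested genes for G1 cyclins, their kinases and E2F factors, 8 fell and 2 rose under TBT and 8 fell and 3 rose under AGN194204. Ccnd1, cyclin D1, fell by 0.27 ± 0.0304 on the log2 scale under TBT and by 0.18 ± 0.0303 under AGN194204. Ccnd2, cyclin D2, rose by 0.32 ± 0.035 and 0.16 ± 0.0352, and the compounds differed for it (0.16, edgeR adjusted p = 0.013). That call was lost with ERCC scaling (0.23, adjusted p = 0.397). Myc rose by 0.24 under TBT, and Cdk6 and Fbxo5 were at -0.31 and -0.37 under AGN194204. Of 24 cell cycle inhibitors and p53 targets 0 fell, and 6 rose under TBT and 7 under AGN194204, where 15% and 12.8% of all genes rose. Btg2, an antiproliferative gene, rose by 1.06 ± 0.0865 and 0.85 ± 0.0882, Sesn2, a stress-induced gene, by 0.63 and 0.50, and Gadd45a, a growth arrest gene, by 0.47 and 0.41. The list's median was 0.07 under TBT and 0.10 under AGN194204. Under rosiglitazone 0 were called, 8 of 24 had an unadjusted p under 0.05 (1413 of 12529 over all genes), 6 of 24 were below 0 and the median was 0.04, turning to -0.0008 with ERCC scaling. With ERCC scaling 7 and 5 of the inhibitors rose, Btg2, Sesn2 and Gadd45a among them with both compounds, and in the G1 list 2 genes fell and 2 rose under TBT and 1 fell and 1 rose under AGN194204.

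Of 52 replication-dependent histone genes tested 6 fell and 1 rose under TBT (median -0.08), and 3 fell and 1 rose under AGN194204 (median -0.05). These shares lie below the 13.9% and 11.3% of all genes that fell, so the calls show no excess of falls among histone genes. By direction alone, 41 of 52 were below 0 under TBT and 35 under AGN194204, against 6425 and 6340 of 12529 over all genes. Under rosiglitazone 0 were called, 6 were below 0 and the median was 0.06. Whether the histone genes shifted as a set was not tested. Hist1h1a fell by 0.28 on the log2 scale under TBT, Hist1h2bm was at -0.31 and -0.23, and Hist3h2a at 0.70 and 0.77. With ERCC scaling 0 histone genes fell, 24 and 32 of 52 were below 0, and the TBT median turned to 0.005. Histone genes are near-identical copies, and no source used here says how reads shared between copies were counted, so single histone values are uncertain.

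**Figure D4:**
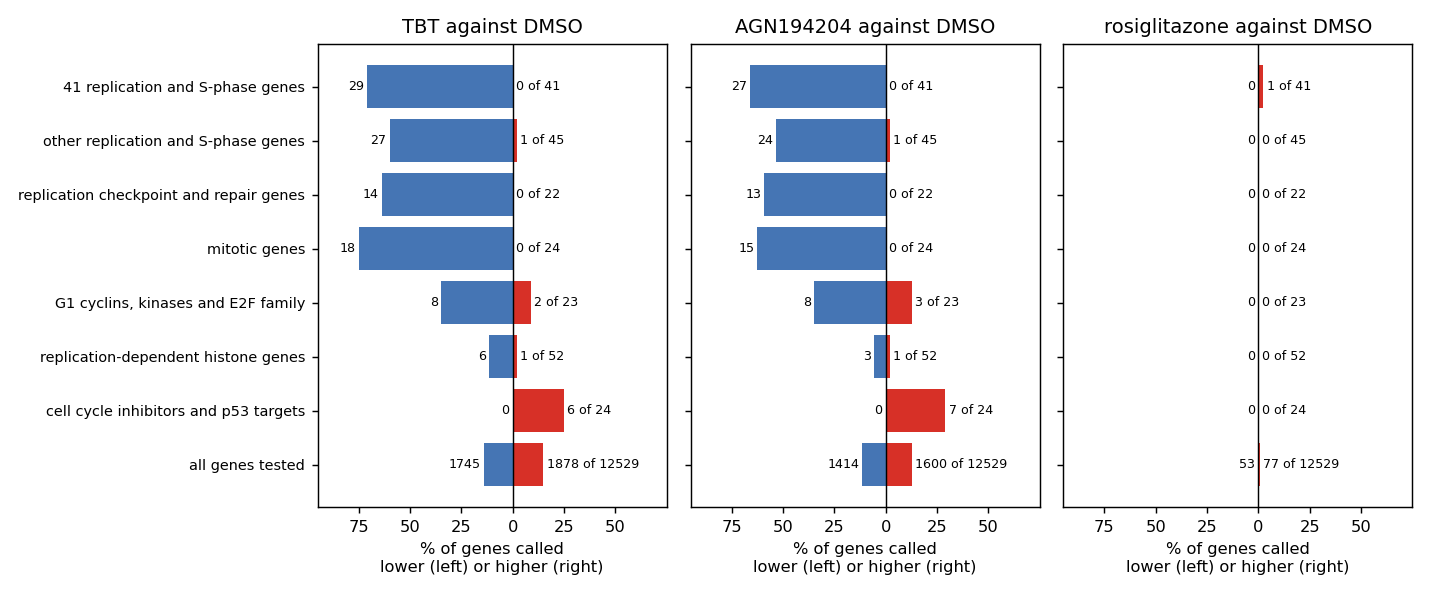
Percent of the genes of each list called lower (left, blue) and higher (right, red) against DMSO for TBT, AGN194204 and rosiglitazone, with counts beside the bars. The 41 genes, the other replication genes, checkpoint and mitotic genes lie mostly on the left under TBT and AGN194204, the inhibitors on the right, and all lists are near 0 under rosiglitazone.

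H3K4me3, a mark of active promoters, covered at least 1 listed start of all 34 members in the table. Counting a gene by the best covered of its starts, an island lay there in 4 of 4 DMSO and 4 of 4 TBT libraries for each of the 34. The shares of 27025 genes counted alike were 41.8% and 42.2%. All 34 members were tested in RNA, but only 9028 of the 27025 genes were. The share among those 9028 was not counted, so the gap may not be particular to the members. Lig1 has another listed start with an island in 1 DMSO and 0 TBT libraries. In the edgeR test of merged islands (12813 regions with an island in all 8 libraries), 0 member regions were called, with 0.0546% of all regions lower and 0.109% higher. At an unadjusted p under 0.05 there were 3 (Mcm5, Gins3 and Rrm1), and the smallest adjusted p was 0.411. The share of all regions at that unadjusted p was not counted, so no result about the members is drawn from these 3. The median log2 change was -0.05, with 22 of 34 below 0, over a range of -0.23 to 0.17.

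The Mcm5 region held 118.5, 105.6, 107.4 and 113.6 CPM in the DMSO libraries and 107.8, 83.7, 93.7 and 95.6 in the TBT libraries, so the groups overlapped, and its change was -0.22 ± 0.073. The Mcm3 region held 95.5, 76.3, 110.1 and 97.5 CPM in DMSO and 91.4, 77.7, 77.9 and 83.1 in TBT, also overlapping, with -0.20 ± 0.0967. The start of another gene lay in 15 of the 34 regions, such as Prpf38a with Orc1, so those counts cannot be given to the member alone. The authors' deposited table of 246 differential H3K4me3 peaks has 0 over a member's start.

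**Figure D5:**
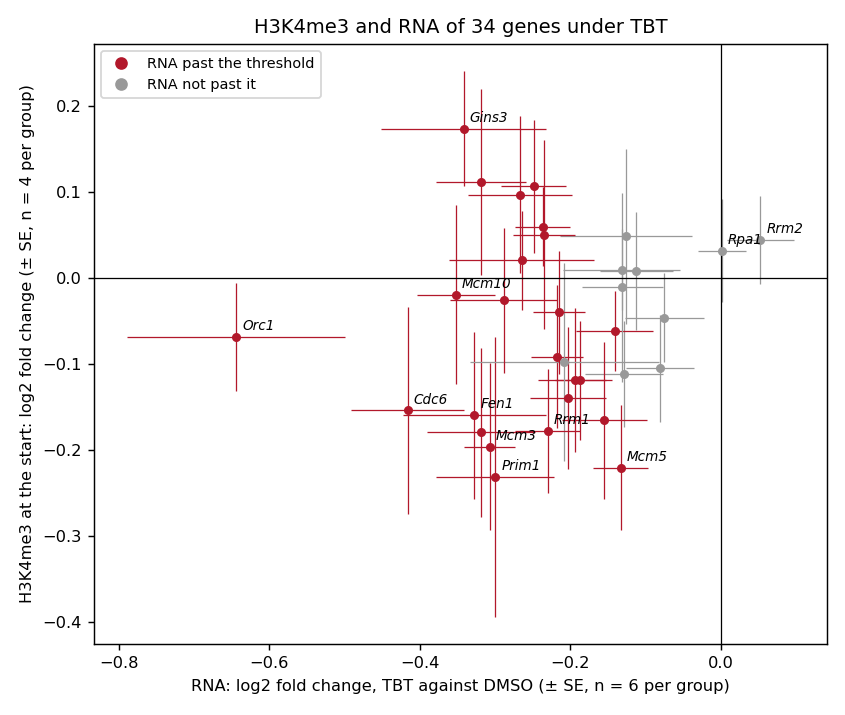
Log2 change in H3K4me3 at the start (vertical, ± SE, n = 4 per group) against log2 change in RNA (horizontal, ± SE, n = 6 per group) under TBT for 34 genes, with genes past the RNA threshold in red. RNA changes reach -0.64 in Orc1, while H3K4me3 changes lie between -0.23 and 0.17, none of them called.

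H3K27me3, the Polycomb mark, was found at the starts of few of these genes. In 0 of 34 members did an island cover the start in all 4 libraries of a treatment. Some island was present in 3 members in DMSO (Mcm3 in 2 libraries, Rfc5 and Ccne1 in 1 each), against 24.6% of all genes. In TBT an island was present in 5 (Mcm5, Prim1, Rrm2, Pola2 and Fen1, 1 library each), against 30.3%. Here too the share among genes tested in RNA was not counted, so the gap may not be particular to the members. The authors' deposited table of 4329 differential H3K27me3 peaks covers a start of 2 of the 34 members. The share of all genes covered was not counted, so no result about the members is drawn from this. A peak lies over Mcm5 (chr8:75109000-75117799, mm10, log2 concentration 1.27 in DMSO and 5.6 in TBT, FDR 0.00473). The same authors' deposited table lists another over Fen1 (chr19:10203600-10253999, 7.97 and 8.86, FDR 0.0496). For both genes an island was found in 1 TBT library only.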

How the data were processed

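The authors deposited raw read counts per gene symbol for 24 RNA libraries. Tools listed in the submitters' processing notes are DiffBind, SICER, DESeq2, STAR, FastQC and SAMtools, with the builds GRCm38 and mm10, without versions. Neither the counting program nor its strand setting is named in the sources used here. Overlapping genes are therefore uncertain. Reads given to no gene were left out. Gene counts were tested with edgeR 4.0.16 in R 4.3.3 (quasi-likelihood F test, TMM, filterByExpr, 1 fit of 24 libraries, Benjamini-Hochberg over 12529 genes, threshold 0.05); SE is the fold change over the root of F. DESeq2 1.42.0 and ERCC scaling were alternatives.

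For each ChIP library the authors deposited islands with counts of ChIP reads, a p-value with FDR, and a fold over input. Islands were called per library; they were merged and their counts summed and tested with edgeR. The deposited differential peaks carry the authors' log2 concentrations, log2 fold and p-value; they are quoted as deposited, with their coordinates. The protocols state up to 12 libraries per run, and 24 RNA libraries were sequenced. Sequencing runs are unlabelled, which leaves within-run values not analysed here. An effect of run therefore cannot be told apart from one of treatment.

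The members and lists were chosen with earlier results of these data known. Library ranges are given for 14 members fixed by name, and in each comparison for the 4 members with the smallest and the 2 with the largest adjusted p; in the other lists genes were named from the 3 smallest p. Some genes this rule names are not reported here. Scripts were tested on simulated data. All pairs of libraries within a group differed by more than sampling noise (lowest chi-square per degree of freedom 1.34). Pairs with TBT library 2 stood highest, at 3.43 to 4.87, and all other pairs reached at most 2.88.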

Additional observations from a re-analysis of the deposited data

Results flagged for a closer look

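A library that stood far from the rest of its group, by Dixon's rule at its 95% critical value, was found in 15 of 244 groups examined (6.15%), where chance gives about 1 in 20. In RNA the high libraries were Cdc6 in rosiglitazone library 4 (67.5 CPM, others 56.4 to 58.2) and in TBT library 2 (55.8, others 43.1 to 45.2). Also high were Gins3 in AGN194204 library 2 (20.9) and DMSO library 6 (26.1), Lig1 in TBT library 6 (143.8), Rfc1 in TBT library 2 (136.3) and Tyms in TBT library 6 (96.8). The low ones were Lig1 in DMSO library 3 (144.007), Mcm2 in rosiglitazone library 6 (293.4) and Orc6 in DMSO library 2 (48.6).

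In H3K4me3 the region of Cdc45 was high in TBT library 3 (62.6 CPM), that of Cdt1 in TBT library 1 (422.8) and that of Uhrf1 in DMSO library 2 (142.2). The region of E2f1 was low in DMSO library 4 (129.4) and that of Mcm2 in TBT library 2 (181.5, others 216.3 to 218.6).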

How the results depend on the processing

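With ERCC spike-in scaling the members called lower came to 4 (TBT against DMSO), 6 (AGN194204 against DMSO), 2 (TBT against rosiglitazone) and 5 (AGN194204 against rosiglitazone), and the Rrm2 rise under rosiglitazone to 0. With TBT library 2 also left out, chosen after seeing the data, the TBT counts were 19 and 14, and the cause was not tested. Calls over all genes with ERCC scaling are given above only for TBT against DMSO with all libraries. Leaving out 1 library at a time gave 26 to 33, 22 to 29, 32 to 35 and 28 to 32 members lower. Under rosiglitazone it gave 0 to 1 higher, where DMSO replicate 2 decided the call. Calls over all genes in these fits are not given here, so these member counts stand without a share of all genes. DESeq2, its size factors, no filter, a fit of 2 treatments alone and a minimum mean of 100 counts (added after seeing the data) kept every count of members within 1.5 times. Over all genes, rosiglitazone against DMSO gave 53 lower and 77 higher, which became 110 and 113 with the replicate block, 121 and 115 in the fit of 2 treatments and 102 and 97 without the filter. The H3K4me3 count was 0 in every setting run.

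Same-numbered libraries showed little pairing over all pairs: 2 of 36 pairs correlated above 0.1 (median r 0.02) and 6 of 24 libraries correlated best with their own number. Number 2 stood apart. It had the most gene counts in every treatment. Within each other group TBT library 2 correlated best with library 2 (r 0.097 in DMSO, 0.076 in rosiglitazone and 0.123 in AGN194204). With the replicate block the members lower were 31, 30, 34 and 30 in the comparisons above. There was 1 higher under rosiglitazone, 0 were called between TBT and AGN194204, and 0 for H3K4me3. Calls over all genes with the block are given above only for rosiglitazone against DMSO. The other RNA member counts with the block therefore stand without a share of all genes. Depth limits low members most: Orc1 had as few as 31 counts.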
